A study of Mus musculus with 16 samples.

Results

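The dystrophin-glycoprotein complex was examined in C2C12, a line of mouse myoblasts that fuse into myotubes once confluent, through 8 genes taken by their symbols from the 31053 listed genes: Dmd, Utrn, Dag1, Sgca, Sgcb, Sgcd, Sgce and Sntb1. mRNA was sequenced from 16 samples, 4 each of WT myoblasts, WT myotubes, Fam134bKO myoblasts and Fam134bKO myotubes. The knockout cells had been made with a lentiviral CRISPR-Cas9 vector aimed at both isoforms of Fam134b, an ER-phagy receptor, and the sources used here do not say whether they are 1 clone or a pool. All groups were grown in DMEM with serum, and the titles of the samples give genotype and stage, while the genotype field of the labels reads unknown. The labels call the samples of a group biological replicates and do not say whether they are separate cultures, so p-values measure the spread between these samples.

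The dystrophin-glycoprotein complex links the actin cytoskeleton of a muscle fibre to the basement membrane. Inside the cell dystrophin, or its relative utrophin, binds actin and the tail of beta-dystroglycan, alpha-dystroglycan binds laminins outside, the sarcoglycans sit beside dystroglycan in the membrane, and syntrophins dock signalling proteins onto dystrophin. Loss of dystrophin causes Duchenne muscular dystrophy, and loss of a muscle sarcoglycan, such as alpha- or beta-sarcoglycan, causes limb-girdle muscular dystrophies.

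Each sample had between 1484750 and 3287461 reads on genes, and replicates 2 and 4 of Fam134bKO myotubes were the shallowest, with 1790524 and 1484750. Levels are given as normalized counts, which are the deposited log2 values turned back to a linear scale, and 3 reads, the smallest level taken as detected, correspond to 2.49 to 5.99 normalized counts. Fam134b itself measured 207 ± 42.0 normalized counts in WT myoblasts and 27.5 ± 5.49 in Fam134bKO myoblasts, and 232 ± 61.6 in WT myotubes and 41.8 ± 14.0 in Fam134bKO myotubes (SD, n = 4). Of the marker genes for the labelled cell types, 6 of 6 myotube markers had reads in WT myoblasts and in myotubes of both genotypes, whereas Myog, which drives differentiation, was at 0 in all 4 Fam134bKO myoblast samples. Their summed level lay between 586 and 1060.2 normalized counts in WT myoblasts but between 8.34 and 15.8 in Fam134bKO myoblasts, and between 14507 and 20319.9 in WT myotubes but between 8285 and 11082 in Fam134bKO myotubes. The 5 myoblast markers summed to between 947 and 1550.2 (WT) and between 428 and 674 (knockout) in myoblasts. Mean levels in WT and knockout myoblasts were 282 and 9.62 for Myod1, 277 and 66.5 for Cdh15, and 598 and 325 for Ncam1. For Myf5 they were 71.1 and 114, higher in the knockout. In myotubes the markers summed to between 3781 and 4997 (WT) and between 1533 and 2052 (knockout). Pax7 was at 0 in the knockout at both stages. The 5 adipocyte markers summed to at most 0.964 and the 5 endothelial markers to at most 1.94 in any sample. Fibroblast markers summed to between 4.00 and 13.0 in the 8 myoblast samples. In myotubes the sums lay between 22.5 and 91.5 in WT and between 112 and 210.1 in the knockout. Dcn alone had means of 53.1 in WT and 144 in Fam134bKO myotubes, and Tcf21 was at 0 in every group. Schwann cell markers summed to between 8.10 and 40.0, with Sox10 at 0.

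Most measured members were higher in WT myotubes than in WT myoblasts, and those called between the genotypes were lower in the knockout. Sgce, which was not called, was higher in every Fam134bKO myoblast sample than in any WT myoblast sample, as were 12.8% of all tested genes. The 6 members that passed the filter on low values (10 or more normalized counts in 4 or more samples) were tested with limma across all 10767 such genes, and genes with a Benjamini-Hochberg adjusted p under 0.05 are called. In WT differentiation 5 of these 6 rose (Dag1, Sgca, Sgcb, Sntb1 and Utrn), where 23.0% of all tested genes were called, 13.8% higher and 9.16% lower. In knockout differentiation 4 of 6 rose (Dag1, Sgcb, Sntb1 and Utrn), against 33.4% of all genes called, 17.3% higher and 16.1% lower. Fam134bKO myoblasts had 2 of 6 members lower than WT myoblasts (Dag1 and Sntb1), where 15.8% of all genes were called, 7.26% higher and 8.50% lower. Fam134bKO myotubes had 3 of 6 lower than WT myotubes (Sgca, Sgcb and Sntb1), where 23.4% were called, 9.74% higher and 13.7% lower. The median log2 fold change of the 6 was 1.85, 1.19, -0.06 and -0.57 in these comparisons, beside medians of -0.01, -0.02, -0.01 and -0.07 over all tested genes. In bulk RNA, fewer differentiated cells and less of a transcript per cell cannot be told apart. Comparisons that share a group also share its samples.

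**Figure D1:**
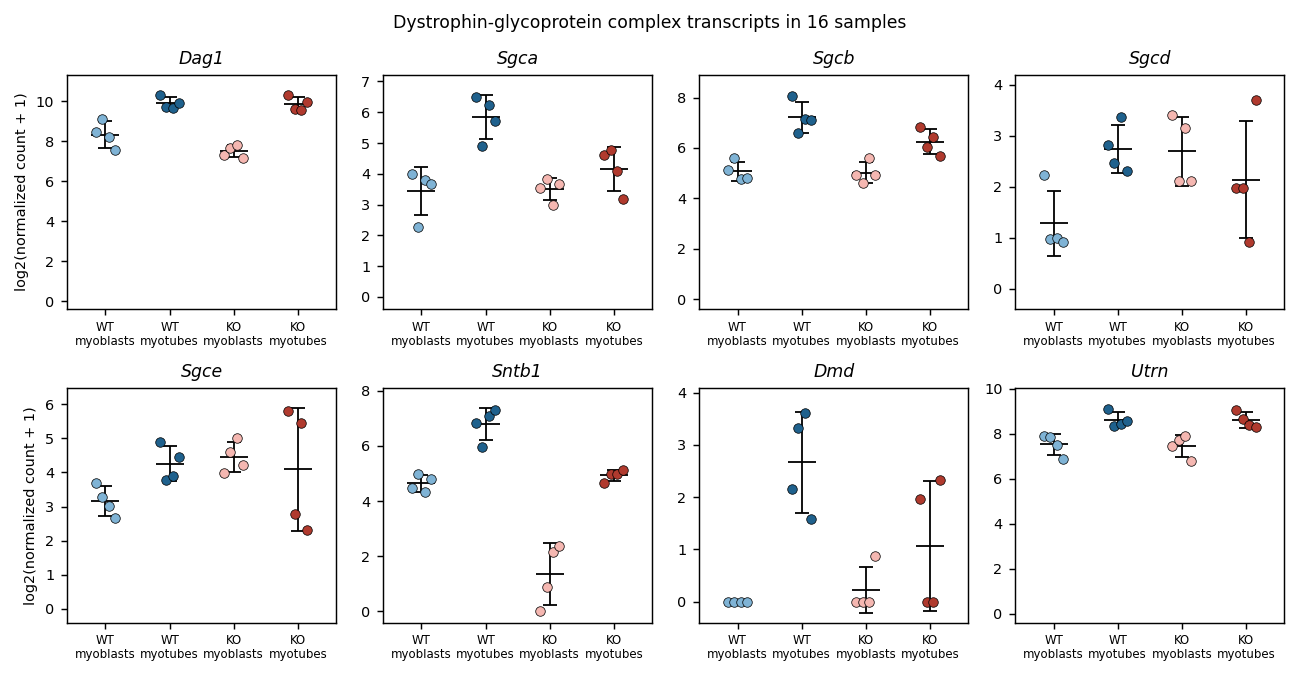
Deposited log2(normalized count + 1) of the 8 genes in each sample (points) of WT and knockout (KO) myoblasts and myotubes, with the mean and SD of 4 samples (bars). Sntb1 is lowest in KO myoblasts, Sgca is higher in each WT myotube sample than in any KO myotube sample, and Dmd has no read in any WT myoblast sample.

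Dag1 encodes dystroglycan, the precursor that is cleaved into the alpha and beta subunits (chromosome 9, minus strand, chr9:108204634-108263958 in GRCm38, the assembly named mm10 in the labels). Its normalized counts were 352, 561, 293 and 186 in WT myoblasts and 1270.0, 831, 801 and 969 in WT myotubes. Fam134bKO myoblasts had 159, 205, 223 and 143, and Fam134bKO myotubes 1258, 794, 759 and 999. Myotubes of both genotypes lay above all myoblast samples, and the knockout myoblasts lay below 3 of the 4 WT myoblast samples, with the fourth, at 186, inside their range. Dag1 rose by 1.56 ± 0.26 (log2 fold change ± SE; adjusted p = 1.66e-04, limma) in WT differentiation, or 2.95-fold, and by 2.37 ± 0.26 in the knockout (adjusted p = 4.06e-07), or 5.17-fold. In myoblasts it fell by 0.84 ± 0.26 in the knockout against WT (adjusted p = 0.0275), a call that was lost when any of 4 single samples was left out: WT myoblast replicates 1 and 2 and Fam134bKO myoblast replicates 1 and 4 (adjusted p = 0.0724 to 0.129). The myotube values of the genotypes overlapped, with a difference of -0.03 and a 95% interval of -0.56 to 0.50 (adjusted p = 0.953).

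Sgca encodes alpha-sarcoglycan, a subunit found mainly in striated muscle (chr11:94962791-94976327, minus strand). It measured 14.8, 3.86, 13.0 and 11.6 in WT myoblasts and 10.5, 13.3, 6.94 and 11.7 in Fam134bKO myoblasts, which overlap. WT myotubes had 89.8, 28.8, 74.3 and 51.5, all above the 23.2, 26.3, 16.2 and 7.99 of Fam134bKO myotubes. Sgca rose by 2.41 ± 0.43 on the log2 scale in WT differentiation (5.31-fold, adjusted p = 4.02e-04, limma). In the knockout the difference between stages was 0.66, with a 95% interval of -0.24 to 1.56 (adjusted p = 0.254) and overlapping groups. Fam134bKO myotubes had 3.20-fold less Sgca than WT myotubes (log2 fold change -1.68 ± 0.43, adjusted p = 0.00745), and without the shallow replicates 2 and 4 of the knockout the change was -1.49 (adjusted p = 0.0281). In myoblasts the genotypes differed by 0.07, with an interval of -0.83 to 0.97 (adjusted p = 0.944).

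Sgcb encodes beta-sarcoglycan, which with the delta subunit forms the core on which the sarcoglycan complex assembles (chr5:73632749-73647790, minus strand). Its normalized counts were 34.1, 47.3, 26.0 and 26.7 in WT myoblasts and 29.7, 23.2, 47.7 and 29.2 in Fam134bKO myoblasts. They were 268, 94.5, 139 and 137 in WT myotubes and 113, 65.7, 86.4 and 50.0 in Fam134bKO myotubes. In both genotypes the lowest myotube sample lay above the highest myoblast sample, whereas the myotubes of the genotypes overlapped at a single knockout sample with 113. Sgcb rose by 2.15 ± 0.31 in WT differentiation (4.44-fold, adjusted p = 4.25e-05, limma) and by 1.24 ± 0.31 in the knockout (2.36-fold, adjusted p = 0.00440). Knockout myotubes were 1.96-fold lower than WT myotubes (log2 fold change -0.97 ± 0.31, adjusted p = 0.0290). That call was lost without either shallow knockout library or without WT myotube replicate 1, 3 or 4 (adjusted p = 0.0525 to 0.115 when 1 sample was left out), and without both shallow libraries the change was -0.58 (adjusted p = 0.254). In myoblasts the difference was -0.05, with an interval of -0.70 to 0.60 (adjusted p = 0.944).

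Sgce encodes epsilon-sarcoglycan, a broadly expressed relative of alpha-sarcoglycan (chr6:4674350-4747207, minus strand). It measured 11.995, 8.68, 7.01 and 5.35 in WT myoblasts and 28.5, 12.6, 13.9 and 20.8 in WT myotubes. Fam134bKO myoblasts had 14.9, 23.2, 31.2 and 17.5, all above the WT myoblasts, and the WT myotubes also lay above the WT myoblasts without overlap. Neither difference passed the test, at 1.09 for WT differentiation (95% interval -0.13 to 2.31, adjusted p = 0.192, limma) and 1.29 for the knockout in myoblasts (interval 0.07 to 2.51, adjusted p = 0.156). Groups failed to overlap in the upward direction for 16.1% and 12.8% of all tested genes in these comparisons. Both passed in a limma fit to the 8 samples compared alone (adjusted p = 0.0250 and 0.00768). The main fit shares 1 spread with Fam134bKO myotubes, where the log2 SD of Sgce was 1.79. That SD was 0.44 in WT myoblasts, 0.51 in WT myotubes and 0.45 in Fam134bKO myoblasts.

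Sgce in Fam134bKO myotubes split with the depth of the library. Replicates 1 and 3 had 55.2 and 42.3 normalized counts, whereas the shallow replicates 2 and 4 had 5.84 and 4.00, so that the group held both the highest and the lowest Sgce values among the 16 samples. With all 4 the difference was -0.37 against knockout myoblasts (95% interval -1.59 to 0.86, adjusted p = 0.664) and -0.16 against WT myotubes (interval -1.39 to 1.06, adjusted p = 0.874). Without the shallow libraries it was 1.17 (adjusted p = 0.0273, limma) and 1.38 (adjusted p = 0.0165). This fit was added after the values were seen and keeps 2 Fam134bKO myotube samples. The samples left out held the lowest Sgce values of the group, so a higher difference was bound to follow. These p-values therefore cannot show that Sgce was higher. Sgca, Utrn and Dag1 overlapped between the deep and shallow knockout myotube libraries, whereas Sgcb was lower in the shallow ones (50.0 and 65.7 against 86.4 and 113), and Sntb1 was 24.2 to 30.6 in the deep and 30.6 to 34.0 in the shallow. The part of depth in these values was not tested.

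**Figure D2:**
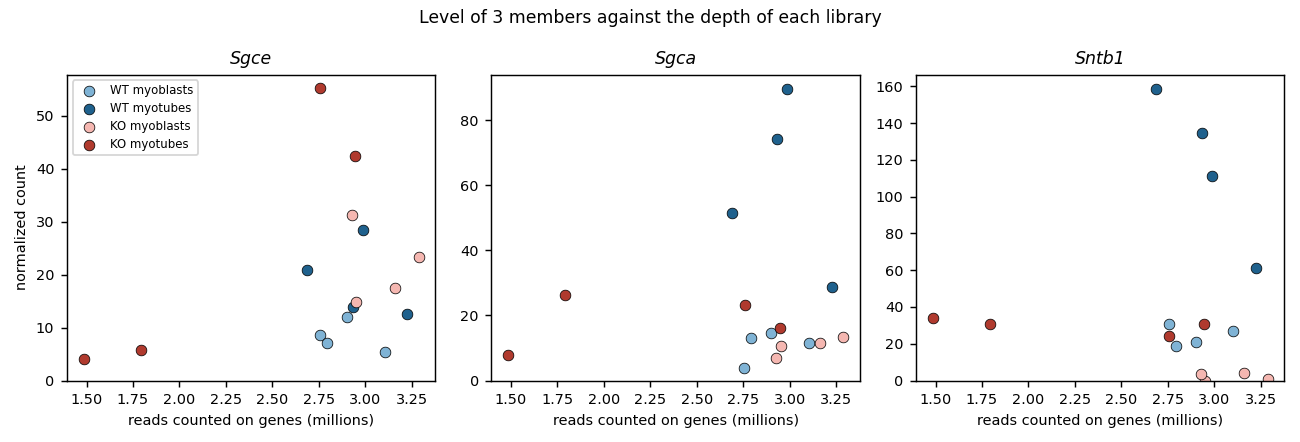
Normalized count of Sgce, Sgca and Sntb1 (vertical axes) against the reads counted on genes in each of the 16 samples (horizontal axis, in units of 1e6 reads), coloured by group. The KO myotube libraries at 1484750 and 1790524 reads hold the lowest Sgce values of their group, 4.00 and 5.84, while their Sntb1 values of 34.0 and 30.6 are close to those of the deeper KO myotube libraries.

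The products of Sgca and Sgce can replace each other in sarcoglycan complexes. The log2 ratio of Sgca to Sgce compared their transcripts within a sample, and protein was not measured here. No correction was made for length, so that only its change between groups can be read. The ratio was 0.27 ± 0.90 in WT myoblasts and 1.59 ± 0.54 in WT myotubes (SD, n = 4). It was -0.95 ± 0.73 in Fam134bKO myoblasts and 0.07 ± 1.63 in Fam134bKO myotubes, where the wide spread followed the split in Sgce.

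Sntb1 encodes beta1-syntrophin, an adaptor that binds dystrophin and utrophin (chr15:55636388-55906949, minus strand), and it differed the most between the genotypes among the 6 tested members. WT myoblasts had 21.2, 30.9, 19.0 and 26.7 normalized counts. Fam134bKO myoblasts had 0, 0.830, 3.47 and 4.17, which are 0, 1, 4 and 5 reads. The groups were far apart, at 24.5 ± 5.36 and 2.12 ± 2.02 (SD, n = 4), and Sntb1 fell by 3.30 ± 0.42 on the log2 scale (adjusted p = 5.62e-06, limma). WT myotubes had 111, 61.2, 135 and 159, all above the 24.2, 30.6, 30.6 and 34.0 of Fam134bKO myotubes, a 3.62-fold lower level in the knockout (log2 fold change -1.86 ± 0.42, adjusted p = 0.00304). Sntb1 rose in both genotypes, by 2.15 ± 0.42 in WT (adjusted p = 9.70e-04) and by 3.59 ± 0.42 in the knockout (adjusted p = 1.36e-06), and knockout myotubes overlapped the range of WT myoblasts. Because the log2 values carry a pseudocount of 1, the changes against knockout myoblasts depend on it: with 0.5 or 5 in its place the rise in the knockout was 4.01 or 2.33, beside 2.17 or 1.98 in WT, and the difference between genotypes in myoblasts was -3.71 or -2.08, all of them called.

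Utrn encodes utrophin, which shares the actin- and dystroglycan-binding parts of dystrophin (chr10:12382188-12869365, minus strand). It measured 239.9, 231, 178 and 118 in WT myoblasts and 175, 211, 236 and 109 in Fam134bKO myoblasts. Utrn in WT myotubes was at 554, 325, 350.4 and 380.4, and Fam134bKO myotubes had 536, 406, 334 and 318. Myotubes lay above myoblasts in both genotypes without overlap, and the genotypes overlapped at both stages. Utrn rose 2.12-fold in WT (log2 fold change 1.09 ± 0.25, adjusted p = 0.00402, limma) and 2.21-fold in the knockout (1.15 ± 0.25, adjusted p = 0.00158). The difference between genotypes was -0.07 in myoblasts (95% interval -0.60 to 0.46, adjusted p = 0.901) and -0.01 in myotubes (interval -0.54 to 0.51, adjusted p = 0.977).

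Dmd, the dystrophin gene (chrX:82948870-85206141, plus strand), and Sgcd, the delta-sarcoglycan gene (chr11:46896253-47988969, minus strand), did not pass the filter and were close to the floor of 3 reads in most samples. Dmd had 0 reads in all 4 WT myoblast samples and 4, 10, 12 and 2 reads in WT myotubes, which are 3.45, 8.996, 11.2 and 1.98 normalized counts. Fam134bKO myoblasts had 0, 0, 0 and 1 reads and Fam134bKO myotubes 3, 0, 0 and 2. Every WT myotube sample was thus above every WT myoblast sample, while knockout myotubes overlapped all other groups. Against a floor of 3 reads per library, the mean of Dmd was at least 2.13-fold higher in WT myotubes than in WT myoblasts. WT myotube replicate 4, with 2 reads, lay under that floor itself. A 2-sided exact permutation test gave p = 0.0286, which 4 against 4 samples cannot go below (adjusted p = 0.114 over 8 tests of these 2 genes). The mean log2 value of Dmd differed by -1.59 between knockout and WT myotubes (exact permutation p = 0.143, adjusted p = 0.286). With no filter on low values, limma called Dmd in WT differentiation (adjusted p = 0.00131) and in knockout against WT myotubes (adjusted p = 0.0408). That fit shares 1 spread over all groups, including those at or near 0. The log2 SD of Dmd was 0 in WT and 0.44 in knockout myoblasts, beside 0.96 in WT and 1.25 in knockout myotubes. With a pseudocount of 0.5 or 5 the change in WT differentiation was 3.52 or 1.10. In knockout against WT myotubes it was -0.73 with 5.

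Sgcd measured 3.69, 0.964, 1.00 and 0.891 normalized counts in WT myoblasts and 6.04, 4.50, 9.29 and 3.96 in WT myotubes, which do not overlap. Fam134bKO myoblasts had 9.62, 3.32, 7.81 and 3.34, and Fam134bKO myotubes had 2.90, 2.92, 0.8997 and 11.99, a spread that overlaps both WT groups. The mean log2 values differed by 1.46 in WT differentiation (exact permutation p = 0.0286, adjusted p = 0.114) and by 1.41 between knockout and WT myoblasts (exact permutation p = 0.0857, adjusted p = 0.229). Neither passed after adjustment, with at most 11 reads of Sgcd in any sample. Gene counts do not separate the isoforms of Dmd, whose 14 annotated transcripts begin at 13 different starts, and no member shares exon bases with another annotated gene.

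**Figure D3:**
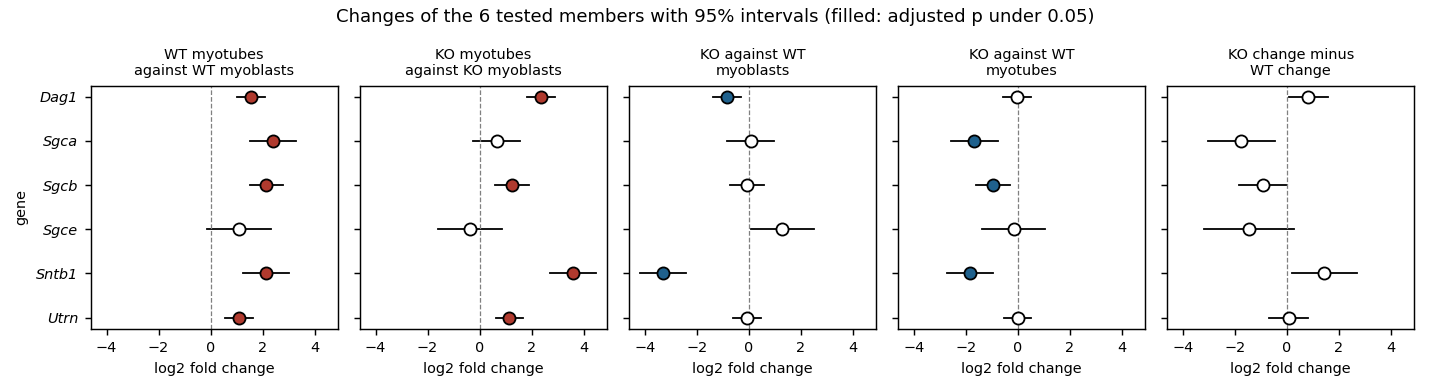
Log2 fold change (points, horizontal axes) with 95% intervals (lines) for the 6 tested genes in 4 comparisons, and the knockout change minus the WT change in the last panel. Filled points passed an adjusted p of 0.05, red for higher and blue for lower. The last panel has no filled point.

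The change with differentiation was not shown to differ between the genotypes for any tested member. The interaction was called for 0 of 6 members, where 3.45% of all genes were called. At an unadjusted p under 0.05 limma gave 3 of 6, beside 17.4% of all genes. These were Dag1, whose rise was larger by 0.81 in the knockout (adjusted p = 0.246), Sntb1, larger by 1.44 (adjusted p = 0.210), and Sgca, with a difference of -1.75 (adjusted p = 0.127). The value of Sntb1 rests on knockout myoblasts with 0 to 5 reads and was 1.84 with a pseudocount of 0.5 and 0.34 with 5 (adjusted p = 0.186 and 0.702). For Utrn the difference was 0.06, with a 95% interval of -0.69 to 0.81.

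The myotube markers also differed between the genotypes. All 6 of them were lower in Fam134bKO than in WT myoblasts, where Dag1 and Sntb1 were lower and Sgca, Sgcb, Sgce and Utrn were not called. Sgce differed in the other direction, by 1.29 (adjusted p = 0.156, limma). Of the 6 markers, Ckm, Mymk and Myh3 were lower in Fam134bKO than in WT myotubes, by 1.98, 1.32 and 1.10 on the log2 scale (adjusted p = 4.45e-05, 2.55e-04 and 0.0166, limma). The interaction was called for 6 of 6 markers, with a median of 4.19, and for 0 of 6 members. Myog, Mymk, Ckm, Myh3 and Actc1 had means of 0 to 0.853 normalized counts in Fam134bKO myoblasts. The size of their interaction therefore depends on the pseudocount. The summed level of the list did not overlap between the genotypes at either stage. Of 5 fibroblast markers 2 were tested. Dcn was higher in knockout than in WT myotubes by 1.57 (adjusted p = 0.0265, limma), whereas Pdgfra was not called (0.28, adjusted p = 0.696). Utrn overlapped between the genotypes at both stages. The markers' part in the members' differences was not tested.

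Windows of 250 bases upstream of a transcription start were taken from RefSeq on GRCm38.p6, which matched 6 of the 8 members (all but Sgce and Sntb1). Of 32851 such windows, 66.2% held an E-box, CANNTG, the site that myogenic bHLH factors bind, 13.0% held its form CAGCTG and 17.2% its form CACCTG. Shown are 3 windows that hold no annotated exon, for a subunit that rose in WT differentiation (Sgca, chr11:94976328-94976577, minus strand), for a subunit that rose in both genotypes (Dag1, chr9:108263959-108264208, minus strand) and for the first start of Dmd (chrX:82948620-82948869, plus strand). Capitals mark every CANNTG on either strand, the sequences run 5′ to 3′, and each ends at the base before the start.
Sgca: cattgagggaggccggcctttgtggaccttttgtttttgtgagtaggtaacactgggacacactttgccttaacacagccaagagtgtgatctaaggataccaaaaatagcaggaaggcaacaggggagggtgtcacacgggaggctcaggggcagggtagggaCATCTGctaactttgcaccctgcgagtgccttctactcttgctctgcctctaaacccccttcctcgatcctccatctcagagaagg
Dag1: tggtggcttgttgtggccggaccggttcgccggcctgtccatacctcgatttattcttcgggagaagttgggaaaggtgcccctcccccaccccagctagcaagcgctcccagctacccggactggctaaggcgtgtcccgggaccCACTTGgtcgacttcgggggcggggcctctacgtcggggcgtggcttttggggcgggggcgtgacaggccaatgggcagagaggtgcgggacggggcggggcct
Dmd: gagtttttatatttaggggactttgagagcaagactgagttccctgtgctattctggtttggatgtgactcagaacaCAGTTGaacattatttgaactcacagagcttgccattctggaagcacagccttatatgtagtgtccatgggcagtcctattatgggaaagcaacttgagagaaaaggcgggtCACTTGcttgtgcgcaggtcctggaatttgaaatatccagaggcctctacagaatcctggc
The Sgca window held 1 E-box, beginning 86 bases before the start, and the Dag1 window 1 E-box at 104 bases. The Dag1 window also held 3 GC boxes, GGGCGG on either strand, a motif in 32.7% of all windows. The Dmd window held 2 E-boxes, at 173 and 61 bases, with 1 match each to the MEF2 site and the CArG box, found in 2.92% and 1.47% of all windows. None of the 3 held CAGCTG or CACCTG. The windows of Utrn and of a later Dmd start also hold no annotated exon and are not shown. They held 7 E-boxes (Utrn), and 0 E-boxes with 3 GC boxes (Dmd). A match in these windows is a description of the letters.

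Related genes of the complex are described by counts from 4 lists, to be read beside the shares of all tested genes, 13.8% higher in WT and 17.3% higher in knockout differentiation, and 8.50% and 13.7% lower in knockout myoblasts and myotubes. Of 12 other subunits and partners 9 were tested, and 5 rose and 1 fell in each genotype with differentiation, with a median log2 fold change of 1.07 in WT and 0.77 in the knockout. Cav3, the caveolin of muscle membranes, rose by 4.84 ± 0.34 in WT (adjusted p = 1.56e-09, limma). Sspn, sarcospan, rose by 1.32 (adjusted p = 0.00969), while Sntb2, beta2-syntrophin, fell by 0.95 (adjusted p = 0.00935). Cav3 was at 0 in all 4 Fam134bKO myoblast samples and had a mean of 43.1 normalized counts in Fam134bKO myotubes, which is at least 16.4-fold higher against a floor of 3 reads per library. In the knockout Drp2, a dystrophin relative, also rose, by 2.04 (adjusted p = 3.83e-05, limma).

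Between the genotypes, 1 of these 9 was higher and 3 were lower in knockout myoblasts, with a median of -0.48, or -0.43 with genes that had no read in the knockout at their bounds. Nos1, the neuronal nitric oxide synthase that binds syntrophin, had a mean of 36.2 normalized counts in WT myoblasts and 5.13 in Fam134bKO myoblasts (log2 fold change -2.63 ± 0.31, adjusted p = 1.40e-06, limma). Cav3 had a mean of 4.68 in WT myoblasts, so that the knockout, with 0, was at least 1.78-fold lower. In myotubes 3 were lower in the knockout, with a median of -0.26. Among them Cav3 fell by 1.85 (adjusted p = 5.15e-04) and Nos1 fell by 1.00 (adjusted p = 0.0215). The interaction was called for Nos1 alone of the 9 (1.63 ± 0.43, adjusted p = 0.0392).

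**Figure D4:**
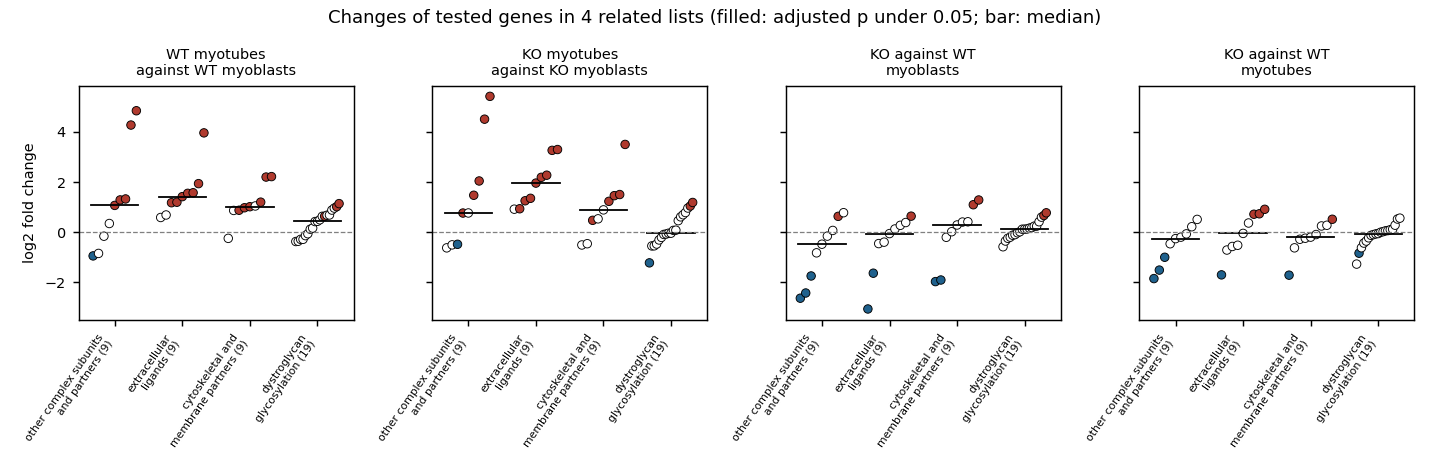
Log2 fold change (vertical axis) of each tested gene in 4 lists of related genes, in 4 comparisons; filled points passed an adjusted p of 0.05 (red higher, blue lower) and bars are medians over the list. In WT differentiation 7 of 9 ligand genes are filled, and 3 of 19 glycosylation genes, where 13.8% of all tested genes were higher.

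Of 10 ligands of dystroglycan and matrix partners 9 were tested, and 7 rose in WT and 8 in knockout differentiation, with medians of 1.42 and 1.96. Lama2, the laminin chain of muscle basement membrane, rose by 1.94 ± 0.37 in WT (adjusted p = 8.28e-04, limma) and by 3.29 ± 0.37 in the knockout (adjusted p = 8.00e-07). Lama1 had 0 to 0.923 normalized counts in WT myoblasts and 10.2 to 28.5 in WT myotubes, and it rose in both genotypes, while Lamc1 rose by 1.57 in WT (adjusted p = 0.0237) and Lamb1 by 2.27 in the knockout (adjusted p = 8.15e-07). In knockout against WT myoblasts 1 was higher and 2 were lower, with a median of -0.06. Lama2 had a mean of 1.27 in Fam134bKO and 19.5 in WT myoblasts (log2 fold change -3.06, adjusted p = 2.92e-06), Lamb1 fell by 1.63 (adjusted p = 8.19e-05), and Bgn, the proteoglycan biglycan, rose by 0.64 (adjusted p = 0.0334). In myotubes 3 were higher and 1 was lower, with a median of -0.05: Hspg2, perlecan, was higher by 0.91 (adjusted p = 0.0332), Lamb2 by 0.73 (adjusted p = 0.0211) and Bgn by 0.72 (adjusted p = 0.0137), and Lama2 fell by 1.70 (adjusted p = 0.00225). The interaction was called for Lamb1 (1.59, adjusted p = 0.0163) of the 9.

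Of 12 cytoskeletal and membrane partners 9 were tested, and 6 rose in WT and 5 in knockout differentiation, with medians of 1.02 and 0.89. Itga7, the muscle laminin-binding integrin chain, rose by 2.22 in WT (adjusted p = 1.22e-05, limma) and by 3.50 in the knockout (adjusted p = 9.51e-09). Flnc, filamin C, rose by 2.20 and 1.50 (adjusted p = 1.33e-05 and 4.61e-04), and Itgb1 by 1.20 and 1.46 (adjusted p = 0.00329 and 3.21e-04). Des, desmin, fell by 1.97 in knockout against WT myoblasts (adjusted p = 3.74e-08) and fell by 1.71 in myotubes (adjusted p = 9.87e-07). In myoblasts 2 were lower and 2 higher, with a median of 0.29, and besides Des these were Itga7 (fell by 1.91, adjusted p = 5.68e-05), Ank2 (higher by 1.28, adjusted p = 0.0250) and Dysf, dysferlin (higher by 1.09, adjusted p = 0.00225). In myotubes 1 was lower and 1, Ank3, was higher by 0.51 (adjusted p = 0.0437), with a median of -0.20. The interaction was called for Dysf (-1.33, adjusted p = 0.0295) of the 9.

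The last list holds genes for the glycosylation of alpha-dystroglycan, which binds laminin through its sugars, and 19 of 21 were tested. Not all of them code for enzymes that act on dystroglycan itself. Dolk, Dpm1 and Gmppa belong to the general supply of sugar donors. In WT differentiation 3 rose, among them Dolk by 1.14 and B4gat1 by 1.02 (adjusted p = 0.0349 and 0.0203, limma), with a median of 0.43, a count near the 13.8% of all tested genes that were higher. In the knockout 2 rose, among them B4gat1 by 1.04 (adjusted p = 0.0120), and Rxylt1 fell by 1.22 (adjusted p = 0.0144), with a median of -0.04. Dpm1 and Gmppa were higher in knockout than in WT myoblasts, by 0.77 and 0.66 (adjusted p = 0.0274 and 0.0275), with a median of 0.12 over the list. In knockout against WT myotubes 1 was lower, with a median of -0.05, and limma called 0 of the 19 in the interaction, with 1 at an unadjusted p under 0.05.

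The genes most like each tested member over the 16 samples were those with the smallest root mean square difference between log2 values centred on each gene's mean, among 6973 tested genes with a mean of at least 50 normalized counts. Utrn was closest to Notch2 (0.161), Pigk (0.193) and Dnajb11 (0.209), and Dag1 to Ctsl (0.263) and Cdon (0.286). For Sgcb they were Sun1 (0.306), Tspan3 (0.316) and Cd164 (0.360). The distances were wider for Sgce, with Plcd1 (0.511), Ppp1r15b (0.563) and Tmbim6 (0.624), for Sgca, with Tead4 (0.553), Creld1 (0.570) and Tmem120b (0.574), and for Sntb1, with Sema6a (0.575), Fbxl22 (0.663) and Dusp27 (0.720). The members' own root mean square spread around their mean ran from 0.66 for Utrn to 2.04 for Sntb1.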

How the data were processed

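The authors used the NEGEDIA Digital mRNA-seq service for libraries and single-end sequencing, trimmed reads with bbduk, aligned them with STAR 2.6.0a to mm10 and counted genes with HTSeq. Counts of each sample were divided by a factor, and the authors deposited the log2 of the quotient plus 1. Before that step 100% of values were whole multiples of a sample's smallest (tolerance 0.01), which gives the reads behind each value. The 10767 genes with 10 normalized counts in 4 samples entered limma 3.58.1 under R 4.3.3 (4 group means, trend, Benjamini-Hochberg adjustment over all of them); all groups share 1 spread per gene. Dmd and Sgcd were tested by exact permutation. Floors cover counting error only. From each list, up to 3 called genes per direction and comparison are named, and some genes that the rule picks are not reported here. The members and lists were chosen with earlier results of these data known. Alternatives were pseudocounts 0.5 and 5, no filter, a minimum of 50, 3 scalings, sample weights, a replicate block, only the samples compared, and each sample left out, and, added after seeing the data, both shallow libraries left out. The procedure was tested on simulated data.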

Additional observations from a re-analysis of the deposited data

Results flagged for a closer look

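Among 31 sets of 4 samples examined for a sample far from the others, 2 had one by Dixon's 95% criterion, which chance gives in about 1 of 20 sets. Both were genes near the floor of 3 reads. Dmd in Fam134bKO myoblast replicate 4 had 1 read (0.834 normalized counts) where the other replicates had 0, so that its gap was the whole range (ratio 1). Sgcd in WT myoblast replicate 1 measured 3.69 normalized counts against 0.891 to 1.00 in the others, with a gap of 0.938 of the range.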

How the results depend on the processing

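Under the alternatives the 40 member results gave 1046 values. Of these, 989 kept their direction and side of the threshold or moved within the spread. Another 12 lost a call, 4 gained one in the same direction, 5 moved and 36 reversed. Part of the 989 was fixed in advance. Median-ratio scaling gave back the main values, and leaving out a sample outside a comparison cannot change its fold change. Dmd and Sgcd were judged by fold change alone. The reversals were of differences not called with all samples, and 2 of them were called in their new direction. Both were for Sgce without the shallow libraries, which held its lowest values in that group. Leaving out each sample in turn, knockout against WT myoblasts ran from -0.29 to 0.15 for Utrn, from -0.31 to 0.26 for Sgca and from -0.25 to 0.12 for Sgcb; in myotubes it ran from -0.17 to 0.15 for Utrn, from -0.17 to 0.11 for Dag1 and from -0.74 to 0.43 for Sgce. Knockout differentiation of Sgce ran from -0.94 to 0.22 and the interaction of Utrn from -0.17 to 0.27. Sample weights gave -0.15 for Sgca and 0.10 for Sgcb in myoblasts, 0.023 for Utrn and 0.46 for Sgce in myotubes, and 0.41 for Sgce in knockout differentiation. Total scaling gave 0.00051 for Sgcb in myoblasts and -0.00052 for the interaction of Utrn, and quantile normalization 0.059 for Sgce in myotubes. Without both shallow libraries, Sgce was at 1.17 in knockout differentiation, 1.38 in myotubes and 0.083 in the interaction, and in myotubes Utrn was at 0.10 and Dag1 at 0.039. With weights Sgce was called in WT differentiation (adjusted p = 0.0161, limma) and in knockout against WT myoblasts (0.00902), and Sgcb in myotubes was not (0.0730), nor in the 8 samples alone (0.0553). The members called between the genotypes in myoblasts were 1 or 2 when a sample was left out (Dag1 was lost without WT replicate 1 or 2 or knockout replicate 1 or 4). Over all genes, calls were 1564 to 2949 in WT differentiation (fewest without WT myotube replicate 1) and 231 to 521 in the interaction (fewest without knockout myoblast replicate 1). Sample weights gave 4683, 3773 and 1221 calls in WT differentiation, myoblasts and the interaction, against 2474, 1697 and 371, and the 8 samples alone 2656 in myoblasts and 1565 in myotubes, against 1697 and 2521. The cause of these moves was not tested. Deviations of samples with the same replicate number had a mean correlation of 0.033 over 24 pairs (-0.223 to 0.369). The mean was -0.0108 over 72 other pairs. Such means over all tested genes cannot decide whether the numbers pair the samples. The replicate block left 5, 4, 2, 3 and 0 members called in the 5 comparisons, as without it, and 2495, 3628, 1678, 2513 and 358 genes. Levels under 3 reads, as of Dmd and Sgcd, are limited by depth, and with no filter Dmd brought the members called to 6 in WT differentiation and 4 in knockout against WT myotubes.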
